A study of Mus musculus with 12 samples.

Results

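Primary astrocyte cultures from wild-type (WT) mice were compared between 2 ages at dissection, postnatal day 8 (P8) and postnatal day 6 (P6). The comparison rests on 4 of the 12 RNA-seq libraries of the series, the 2 biological replicates labelled P8 WT and the 2 labelled P6 WT. The WT mice were hGFAP-cre::Rack7+/+, so they carried the Cre transgene driven by the human GFAP promoter. Their conditional knockout counterparts (cKO) were hGFAP-cre::Rack7 fl/fl. The floxed allele was made in C57BL/6 zygotes, and the paper does not give the background of the Cre line. The remaining 8 libraries are P1 WT, P1 cKO, P6 cKO and P8 cKO, with 2 libraries in each group. Brain tissue was freed of meninges, dissociated and plated, the flasks were shaken to detach microglia and oligodendrocytes, and the attached cells were grown further in astrocyte medium before RNA was taken. P6 and P8 are therefore ages at dissection and not the age of the cells at harvest. The labels call the replicates biological but do not say whether they came from separate animals or pools, so the p-values measure the spread between these libraries.

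Astrocytes take up glutamate and potassium, supply neurons with lipids and lactate, secrete factors that promote synapses, and respond to injury with a reactive state. In the mouse forebrain they arise from radial glia and from local division in the first postnatal weeks, while genes of the progenitor state decline. Postnatal brain cultures called astrocyte cultures also keep some other adherent cells, chiefly microglia and fibroblasts of the meninges. The values below are CPM, that is, read counts scaled to a common normalized library size. They are not corrected for transcript length, so levels are compared between libraries and not between genes. A gene was called when its adjusted p was below 0.05 in edgeR's quasi-likelihood test and its fold change was at least 1.5. Adjusted p stands throughout for the Benjamini-Hochberg value of that test over all 17938 genes tested.

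Total counts were 64179279 and 68634038 in the P6 WT libraries and 60276423 and 73383775 in the P8 WT libraries, within the 54413504 to 89183250 of the whole series. Sex-linked transcripts separated the ages. Xist, the RNA of the inactive X chromosome, was at 1436 and 1266 CPM in the P6 WT libraries and 0.185 and 0.152 CPM in the P8 WT libraries. Ddx3y, a Y-linked helicase gene, had no count in either P6 WT library and reached 174 and 139 CPM in the P8 WT libraries. The P6 cKO libraries were likewise high in Xist and the P8 cKO libraries high in Y-linked transcripts, so the sex of the tissue and its age cannot be told apart in this comparison. Only autosomal genes are described below, by fixed ranks of fold change and CPM; members of a list outside those ranks were named after their values were seen. Zmynd8, which encodes RACK7, was at 114 and 116 CPM at P6 and 100 and 104 CPM at P8 in WT, a small difference (log2 fold change -0.17, SE 0.047, adjusted p = 0.0194). In the libraries labelled cKO it was at 242 and 230.5 CPM at P6 and 160.4 and 171 CPM at P8, above WT, and a whole-gene count does not read the deleted exons separately.

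Between P6 and P8, 1484 of the 17223 autosomal genes tested were higher (8.62%) and 1771 were lower (10.3%). The counts of list members given below are to be read beside these shares. The median log2 fold change over all autosomal genes tested was 0.0022. At least a 4-fold change was found for 339 of the genes higher at P8 and 313 of those lower. All 1484 genes higher at P8 had both P8 libraries above both P6 libraries, and 1768 of the 1771 lower genes had both below. Called genes with no count in either P6 library numbered 60, and 40 had no count in either P8 library. These RNA pools come from mixed cultures, in which more cells of a type and more RNA per cell cannot be told apart.

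**Figure D1:**
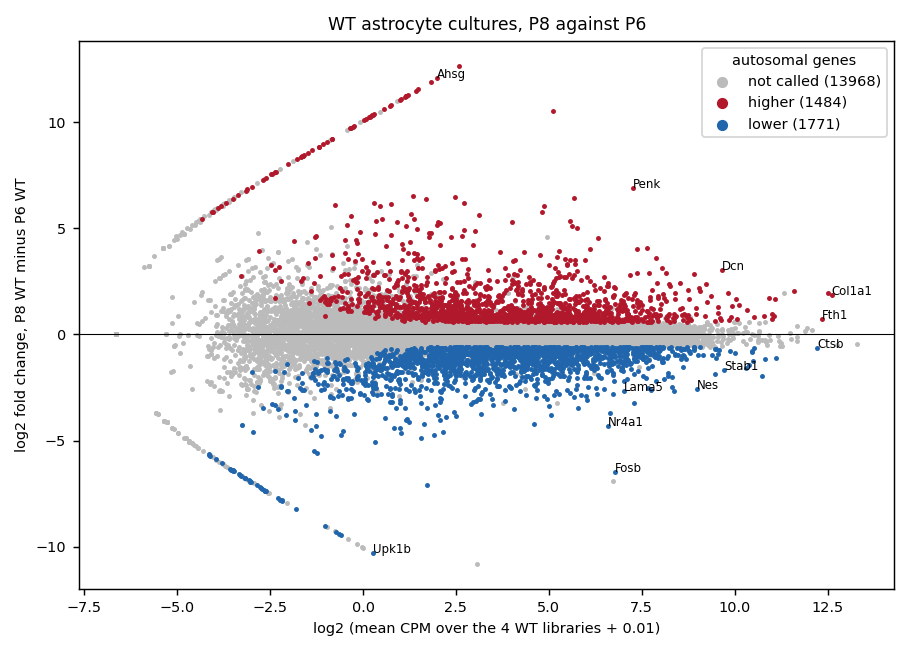
Log2 fold change (P8 WT minus P6 WT) of each autosomal gene against its log2 mean CPM over the 4 WT libraries, 1 point per gene. Red points are the 1484 genes called higher and blue points the 1771 called lower; the diagonal lines at both edges are genes with no count in 1 of the 2 groups, whose fitted fold changes have no fixed size.

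Among astrocyte markers more were called lower than higher, and most markers of neural stem and progenitor cells fell. Markers of meningeal fibroblasts rose nearly throughout, and the summed microglial level was about level. Of 16 astrocyte markers tested, 2 were higher, 5 were lower and 9 did not pass, with a median log2 fold change of -0.27. Their summed level was 2555 and 2743 CPM in the P6 libraries and 2457 and 2841 CPM in the P8 libraries, so the sums overlapped. Gja1, described below, is part of these sums and rose with widely differing replicates. With Gja1 taken away, both P8 sums lie below both P6 sums, so the overlap rests on that gene. Gfap, the intermediate filament protein used to identify astrocytes, was at 396 and 437 CPM at P6 and 372 and 384 CPM at P8, and this difference did not pass (log2 fold change -0.14, SE 0.057, adjusted p = 0.0918). Aqp4, the water channel of astrocyte endfeet, was at 344 and 342 CPM at P6 and 443 and 451 CPM at P8 and missed the fold threshold. Slc1a3, which encodes the glutamate transporter GLAST, fell from 226 and 243 CPM to 129 and 129.6 CPM (log2 fold change -0.86, SE 0.082, adjusted p = 4.73e-05). Aldh1l1, a folate enzyme widely used as an astrocyte marker, fell from 132 and 155 CPM to 52.4 and 51.3 CPM (log2 fold change -1.47, SE 0.069, adjusted p = 4.53e-07). For both genes the P8 libraries lay close together and well below P6. Mlc1 and Hepacam, partners in a membrane complex of astrocyte endfeet, and the gliogenic factor Sox9 were the other 3 lower markers, Sox9 only while P8 replicate 1 was kept. Gja1, which encodes the gap junction protein connexin 43, was higher, at 166 and 284 CPM at P6 and 359.7 and 712 CPM at P8 (log2 fold change 1.25, SE 0.33, adjusted p = 0.0154). Its replicates differed widely at both ages, and the call was lost without P6 replicate 1 or without P8 replicate 2. The other higher marker, Ntsr2, was below 3 CPM in every WT library of the pair and lost its call on leaving out any 1 of the 4 libraries.

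Of 8 markers of neural stem and progenitor cells, 6 were lower, 1 was higher and 1 did not pass. Nes, the intermediate filament protein nestin, was at 839 and 889.5 CPM at P6 and 152 and 142 CPM at P8, a fall in both P8 libraries (log2 fold change -2.56, SE 0.043, adjusted p = 4.05e-09). Sox2, a transcription factor of neural progenitors, fell from 64.3 and 68.4 CPM to 24.1 and 28.2 CPM (log2 fold change -1.34, SE 0.082, adjusted p = 2.38e-06). Fabp7, the lipid-binding protein of radial glia, fell from 132 and 147 CPM to 52.1 and 56.4 CPM (log2 fold change -1.36, SE 0.078, adjusted p = 1.53e-06). Pax6, Prom1 and Hopx were the other 3 lower members. Egfr, the receptor for epidermal growth factor, moved against the list, from 329 and 299 CPM to 903 and 930.3 CPM (log2 fold change 1.55, SE 0.056, adjusted p = 9.56e-08). Of 6 oligodendrocyte lineage markers tested, 3 were lower, 2 were higher and 1 did not pass. The factor Olig1 was lower, at 73.4 and 77.1 CPM at P6 and 17.4 and 16.1 CPM at P8. Olig2 was also lower, at 18.6 and 20.7 CPM at P6 and 4.76 and 4.45 CPM at P8. Myelin genes lay on both sides. Cnp was lower, at 61.6 and 73.5 CPM at P6 and 39.1 and 40.1 CPM at P8 (log2 fold change -0.77, SE 0.081, adjusted p = 8.71e-05). Mbp was higher, at 17.1 and 16.6 CPM at P6 and 26.6 and 30.7 CPM at P8 (log2 fold change 0.77, SE 0.12, adjusted p = 0.00111).

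Of 10 meningeal fibroblast markers tested, 9 were higher and none was lower. Their summed level was 6637 and 6690 CPM in the P6 libraries and 25961 and 25824 CPM in the P8 libraries, with Col1a1, Col1a2 and Col3a1 making up much of it. Members outside the collagens moved the same way. Foxc1, a transcription factor needed for the meninges, was at 155 and 154 CPM at P6 and 304 and 293 CPM at P8 (log2 fold change 0.95, SE 0.14, adjusted p = 6.33e-04). Lum, a small proteoglycan of fibroblasts, rose from 7.21 and 8.57 CPM to 126 and 131 CPM (log2 fold change 4.03, SE 0.23, adjusted p = 4.14e-06). Pdgfra, the receptor of fibroblasts and oligodendrocyte precursors, was at 3.23 and 4.09 CPM at P6 and 15.5 and 17.1 CPM at P8 (log2 fold change 2.15, SE 0.30, adjusted p = 4.61e-04). In each case the P8 pair lay wholly above the P6 pair. Crabp2 was at 5.13 and 4.5 CPM at P6 and 9.74 and 9.81 CPM at P8 and did not pass. Of 5 listed arachnoid barrier markers, 3 could be tested. The junction genes Cldn11 and Cdh1 were higher, at 7.26 and 7.48 CPM at P6 and 36.6 and 38.6 CPM at P8 for Cldn11. Ptgds was not called, at 0.836 and 0.715 CPM at P6 and 0.538 and 0.346 CPM at P8 (log2 fold change -0.81, SE 0.59, adjusted p = 0.328). Microglial and macrophage markers summed to 4616 and 4795 CPM at P6 and to 4603 and 4440 CPM at P8, with 3 of 16 higher and 1 lower. Ptprc, the leukocyte surface protein CD45, was higher, at 92 and 98.4 CPM at P6 and 179 and 177 CPM at P8 (log2 fold change 0.90, SE 0.13, adjusted p = 5.33e-04). Tmem119, a membrane protein of microglia, was higher, at 36.6 and 38.3 CPM at P6 and 61.8 and 57.7 CPM at P8 (log2 fold change 0.67, SE 0.077, adjusted p = 1.44e-04), and so was Aif1, the protein Iba1 used to stain microglia, at 17.2 and 20.2 CPM at P6 and 32.3 and 32.5 CPM at P8 (log2 fold change 0.79, SE 0.080, adjusted p = 6.71e-05). The lower one was Cd68, a lysosomal protein, at 512 and 518 CPM at P6 and 255 and 257 CPM at P8 (log2 fold change -1.01, SE 0.033, adjusted p = 5.59e-08). Hemoglobin genes were at or near 0 in all 4 libraries.

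**Figure D2:**
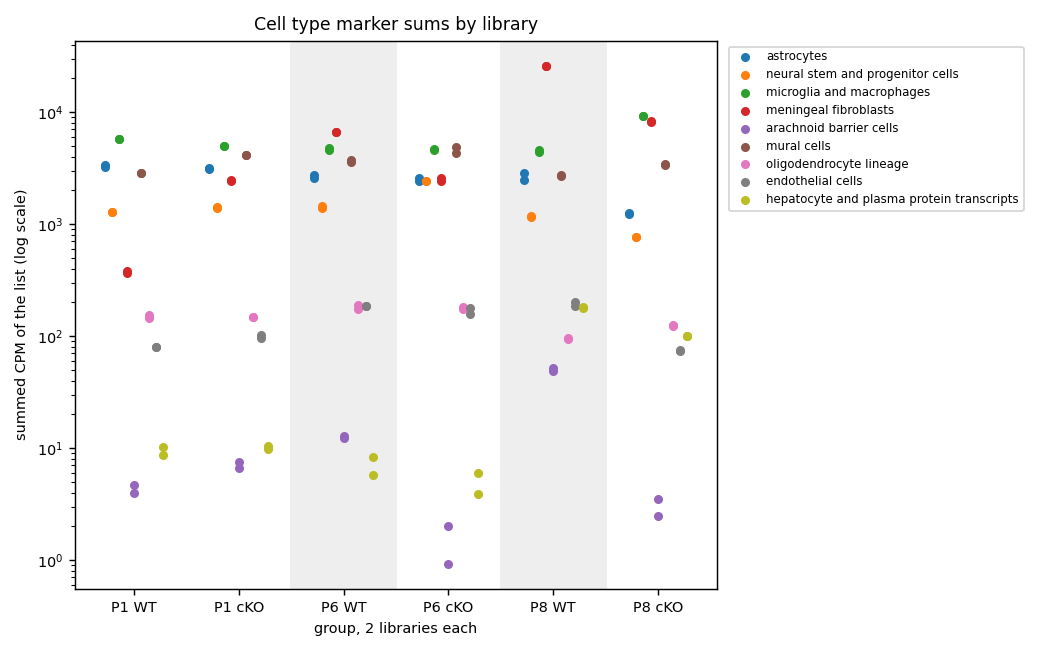
Summed CPM of cell type marker lists (log axis) in each of the 12 libraries, by group, with 2 points per list and group; the shaded columns are P6 WT and P8 WT. The fibroblast sum in WT was 6637 and 6690 CPM at P6 and 25961 and 25824 CPM at P8, while the microglial sums stayed between 4440 and 4795 CPM.

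The largest fold rises, ranked among autosomal genes whose 4 libraries averaged 1 CPM or more, went to genes that had no count in either P6 library. Of the 12 largest, 8 are genes best known from the liver. Ahsg, a plasma glycoprotein, was at 7.16 and 8.74 CPM at P8, at least 349.6-fold above the floor of 3 counts over the P6 group. Apoa1, the main apolipoprotein of high-density lipoprotein, was at 6.36 and 4.74 CPM at P8, at least 244-fold higher. The cytochromes Cyp3a11 and Cyp2e1, the serpins Serpina1b and Serpina3k and the fibrinogen chains Fga and Fgb ranged from 3.46 and 4.65 CPM for Fgb to 5.28 and 5.36 CPM for Cyp3a11. Both P8 libraries carried all 8, at low levels. Serpina1b, Serpina3k and Cyp3a11 have near-identical neighbours among which reads may be split. A list of 35 hepatocyte and plasma protein transcripts, put together after these values were seen, summed to 5.78 and 8.25 CPM in the P6 libraries and to 181 and 178 CPM in the P8 libraries, with 30 of 34 tested members higher. At P6 most of that sum was Ttr, a thyroid hormone carrier also made by the choroid plexus, at 3.5 and 6.16 CPM. Alb, serum albumin, was at 0 and 0.0876 CPM at P6 and 70.2 and 68.7 CPM at P8. The list summed to 101 and 99.5 CPM in the P8 cKO libraries, so it was high at P8 under both labels; its part in other differences was not tested.

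The other 4 of the 12 were Pcdhb19, Fgr, Prnd and Slfn1. Fgr, a Src-family kinase of myeloid cells, was at 7.01 and 7.12 CPM at P8, at least 311-fold higher. Prnd, which encodes the prion-like protein doppel, was at 4.1 and 4.78 CPM at P8, and its locus overlaps that of Prn. Slfn1, a Schlafen gene, was at 6.05 and 2.84 CPM at P8. Prnd and Slfn1 were also present in the P1 WT libraries, at 17.9 and 21.5 CPM for Prnd and 11.8 and 9.24 CPM for Slfn1. Fgr was at 1.04 and 1.04 CPM there. For Prnd, Slfn1 and Fgr the P6 WT libraries were thus the lowest of the WT groups. Pcdhb19, a clustered protocadherin, was at 13.1 and 10.9 CPM at P8 and at 4.86 and 0 CPM in the P1 WT libraries. It lost its call on leaving out any 1 library, and it shares sequence with neighbouring protocadherins.

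Fibrillar collagen genes and the enzymes that process them were higher at P8 or not called. Of 19 members, 9 were higher and none was lower, with a median log2 fold change of 0.83. Col1a1 (ENSMUSG00000001506, chromosome 11, 94936224 to 94953042, GRCm38), the alpha-1 chain of type I collagen, was at 2727 and 2719 CPM at P6 and 9912 and 9529 CPM at P8 (log2 fold change 1.84, SE 0.045, adjusted p = 1.29e-08). Col1a2, its partner chain, rose from 2324 and 2384 CPM to 9168 and 9307 CPM (log2 fold change 1.97, SE 0.035, adjusted p = 4.05e-09). Col3a1, type III collagen, rose from 1212 and 1206 CPM to 4915 and 4966 CPM (log2 fold change 2.03, SE 0.060, adjusted p = 3.18e-08). These 3 had the largest gains in CPM among the called autosomal genes, and the replicates of each age were nearly superimposed. Col11a1 rose from 159 and 159.5 CPM to 499 and 519 CPM (log2 fold change 1.68, SE 0.071, adjusted p = 2.30e-07). Adamts2, which trims the amino end of procollagens, rose from 23.9 and 24.3 CPM to 156 and 153 CPM (log2 fold change 2.68, SE 0.13, adjusted p = 5.03e-07). Lox, which cross-links collagen, was at 1289 and 1213 CPM at P6 and 2277 and 2315 CPM at P8 (log2 fold change 0.88, SE 0.032, adjusted p = 1.02e-07). Col5a1, a minor fibril chain, and the processing genes P4ha2 and Pcolce were the remaining higher members. Col5a2 was at 1178 and 1195 CPM at P6 and 1296 and 1270.2 CPM at P8 and Loxl2 at 507 and 464 CPM at P6 and 434 and 427 CPM at P8, both below the fold threshold. Col12a1, a collagen that coats fibrils, also ranked among the largest gains, from 967 and 851 CPM to 2919 and 2997 CPM (log2 fold change 1.70, SE 0.057, adjusted p = 6.28e-08). The fibroblast marker sum rose over the same libraries, and 3 of its 10 members are collagens of this list; the part of fibroblasts in these rises was not tested.

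Among 10 small leucine-rich proteoglycans, which bind collagen fibrils, 6 were higher and 1 was lower. Dcn (ENSMUSG00000019929, chromosome 10, 97479609 to 97518143), decorin, rose from 174 and 181 CPM to 1412 and 1479.9 CPM (log2 fold change 3.02, SE 0.16, adjusted p = 7.34e-07). Epyc, epiphycan, rose from 17.2 and 20.4 CPM to 307 and 312 CPM (log2 fold change 4.04, SE 0.17, adjusted p = 2.37e-06). Ogn, osteoglycin, was at 204 and 217 CPM at P6 and 658 and 682 CPM at P8 (log2 fold change 1.67, SE 0.043, adjusted p = 1.41e-08). Prelp went the other way, from 475 and 446 CPM to 131 and 133 CPM (log2 fold change -1.80, SE 0.048, adjusted p = 1.93e-08). Prelp was thus the exception among the called members of the family. Elastic fibre and adhesive glycoprotein genes were higher in 11 of 19 cases and lower in 2. Fbn2, fibrillin-2, rose from 137 and 139 CPM to 537 and 521 CPM (log2 fold change 1.94, SE 0.086, adjusted p = 2.97e-07), and Fbn1 was at 834 and 752 CPM at P6 and 1316 and 1335 CPM at P8 (log2 fold change 0.74, SE 0.050, adjusted p = 4.33e-06). Tnc, tenascin-C, fell from 1031 and 936 CPM to 514 and 538 CPM (log2 fold change -0.90, SE 0.043, adjusted p = 4.71e-07). Fn1, fibronectin, was at 12624 and 10675 CPM at P6 and 8425 and 8539 CPM at P8 and did not reach the fold threshold.

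Of 16 basement membrane genes, 4 were higher and 1 was lower. Lama5, the laminin alpha-5 chain, fell from 228 and 217 CPM to 33.6 and 35.8 CPM (log2 fold change -2.68, SE 0.052, adjusted p = 6.10e-09), while Lama4, a laminin chain of vessels and mesenchyme, rose from 166 and 150.5 CPM to 308 and 310.3 CPM (log2 fold change 0.97, SE 0.11, adjusted p = 1.13e-04). Sparc and Col4a1 did not reach the fold threshold. Of 17 matrix proteases and inhibitors, 7 were higher and 3 were lower. Adamts5, an aggrecan-cleaving protease, was at 68.4 and 69.8 CPM at P6 and 164 and 170.2 CPM at P8 (log2 fold change 1.27, SE 0.078, adjusted p = 2.26e-06). Timp2, a metalloproteinase inhibitor, fell from 1833 and 1758 CPM to 1037 and 1054 CPM (log2 fold change -0.78, SE 0.043, adjusted p = 1.14e-06). Thbs2, a secreted thrombospondin listed with the synapse-forming factors, was among the largest gains, from 1401 and 1339 CPM to 2717 and 2683 CPM (log2 fold change 0.98, SE 0.034, adjusted p = 8.52e-08).

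**Figure D3:**
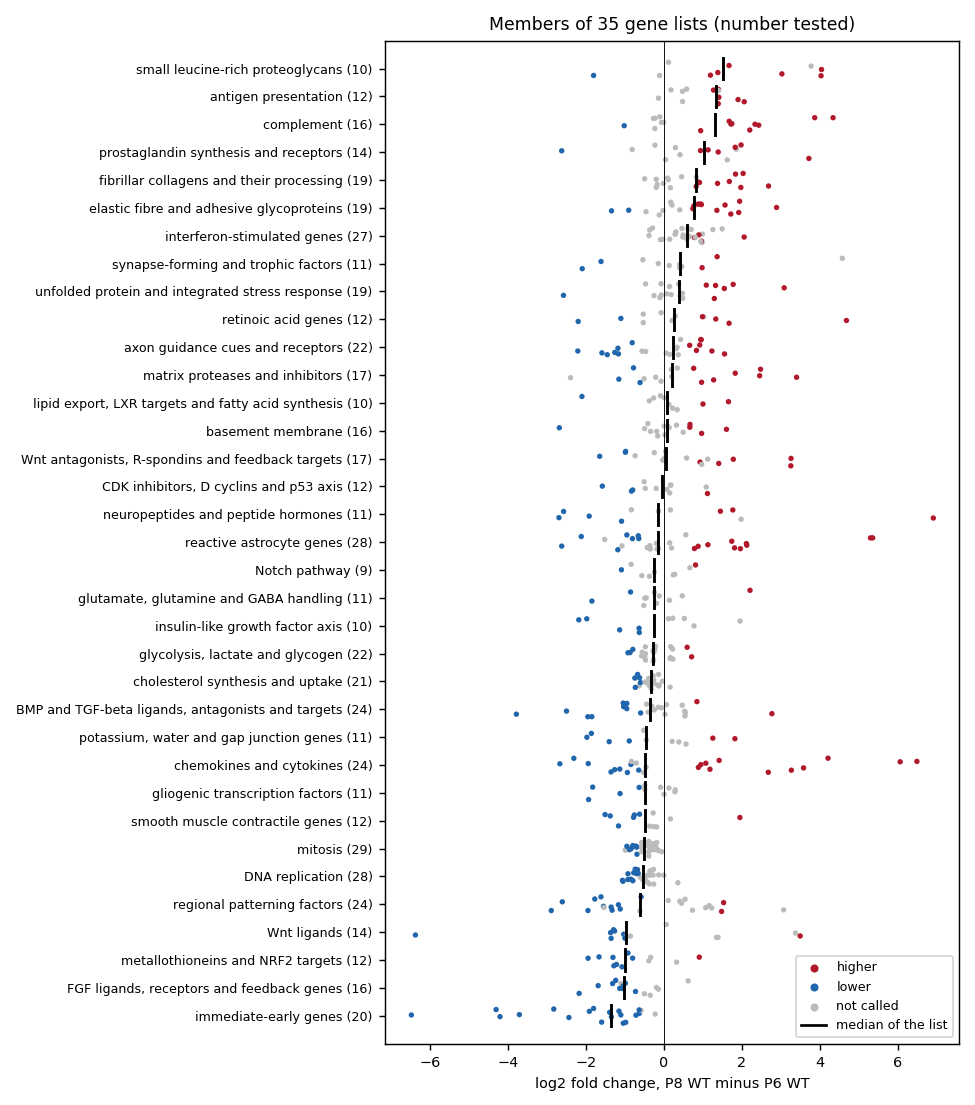
Log2 fold change (P8 WT minus P6 WT) of every tested member of 35 gene lists, 1 point per gene, ordered by the median of the list, which the black bar marks; red members were called higher, blue lower and grey not called. Small leucine-rich proteoglycans had the highest median, 1.53, and immediate-early genes the lowest, -1.37.

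Genes of astrocyte transport functions moved singly. Of 11 potassium, water and gap junction genes, 2 were higher and 4 lower. Kcnj10, the inward rectifier Kir4.1 that buffers potassium, fell from 200.1 and 215 CPM to 114 and 110.1 CPM (log2 fold change -0.89, SE 0.082, adjusted p = 3.59e-05). Kcnk2, a leak potassium channel, fell from 33.6 and 35.8 CPM to 8.34 and 9.29 CPM (log2 fold change -1.97, SE 0.10, adjusted p = 6.97e-07). Among 11 genes of glutamate, glutamine and GABA handling, Slc1a3 and Slc38a3 were lower and the glycine transporter gene Slc6a9 was higher. Slc38a3, a glutamine carrier, was at 105 and 93.7 CPM at P6 and 28.9 and 26.3 CPM at P8 (log2 fold change -1.85, SE 0.14, adjusted p = 9.03e-06). Glul, glutamine synthetase, was at 391 and 403 CPM at P6 and 344 and 353 CPM at P8 and missed the fold threshold. Among 11 gliogenic transcription factors 4 were lower and none was higher. Sox6 fell from 55.6 and 56.2 CPM to 12.8 and 18.7 CPM (log2 fold change -1.83, SE 0.16, adjusted p = 2.15e-05) and Sox8 from 13.1 and 13 CPM to 3.55 and 3.3 CPM (log2 fold change -1.93, SE 0.099, adjusted p = 7.09e-07), whereas Nfix was at 292 and 285 CPM at P6 and 314 and 317 CPM at P8 and did not pass.

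Of 28 genes known from reactive astrocytes, 10 were higher and 7 were lower, so the list was split. Vim, the intermediate filament protein vimentin, fell from 2469.6 and 2566 CPM to 1109.5 and 1111 CPM (log2 fold change -1.18, SE 0.046, adjusted p = 1.40e-07). Cd44, the hyaluronan receptor, fell from 361 and 373 CPM to 232 and 233 CPM (log2 fold change -0.66, SE 0.080, adjusted p = 2.18e-04). Lcn2, lipocalin-2, rose from 1.06 and 0.555 CPM to 35.4 and 27.6 CPM (log2 fold change 5.30, SE 0.26, adjusted p = 5.33e-07). Steap4, a metalloreductase induced by inflammation, rose from 2.41 and 2.15 CPM to 92.7 and 93.5 CPM (log2 fold change 5.35, SE 0.39, adjusted p = 7.34e-06). Ptx3, a secreted pentraxin, rose from 54.9 and 55 CPM to 215 and 213 CPM (log2 fold change 1.96, SE 0.062, adjusted p = 4.42e-08).

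Immediate-early genes, which are switched on within minutes of stimulation, were lower at P8 almost as a body. Of 20 members, 18 were lower, none was higher, and the median log2 fold change was -1.37. Fosb (ENSMUSG00000003545, chromosome 7, 19302696 to 19310051), a subunit of the AP-1 factor, was at 229 and 202 CPM at P6 and 2.37 and 2.47 CPM at P8 (log2 fold change -6.47, SE 0.28, adjusted p = 2.37e-07). Nr4a1, an orphan nuclear receptor, fell from 184 and 181 CPM to 9.11 and 9.35 CPM (log2 fold change -4.30, SE 0.22, adjusted p = 7.46e-07). Egr3 fell from 188 and 182 CPM to 15.3 and 13.1 CPM (log2 fold change -3.71, SE 0.19, adjusted p = 6.13e-07). In these 3 genes the P8 libraries lay far below P6 and the replicates of an age were close. Arc, a cytoskeletal regulator of neurons, fell from 44.5 and 47.3 CPM to 3.11 and 1.9 CPM (log2 fold change -4.20, SE 0.29, adjusted p = 5.16e-06). Egr1 fell less, from 514 and 522 CPM to 266 and 259 CPM (log2 fold change -0.98, SE 0.084, adjusted p = 2.23e-05). Fos was at 211 and 217 CPM at P6 and 83.1 and 85.4 CPM at P8 (log2 fold change -1.35, SE 0.12, adjusted p = 3.52e-05), and Jun at 300.4 and 307 CPM at P6 and 104 and 97 CPM at P8 (log2 fold change -1.60, SE 0.083, adjusted p = 7.85e-07). Egr2 fell in both P8 libraries but unequally, from 136 and 138 CPM to 33.6 and 5.31 CPM (log2 fold change -2.82, SE 0.63, adjusted p = 0.00741). Ier2 and Ier3 were the members that did not reach the fold threshold or the adjusted p. The summed level of the list was 3235 and 3231 CPM at P6 and 1232 and 1175 CPM at P8. It was 898 and 912 CPM in the P1 WT libraries, so P6 WT was the highest of the 3 WT groups. The sex-linked transcripts summed to 1436 and 1266 CPM in P6 WT, 274 and 280 CPM in P1 WT and 344 and 321 CPM in P8 WT. These sums add Xist to Y-linked transcripts, so they are not compared as levels. The sum was nearly all Xist in P6 WT and nearly all Y-linked in P8 WT. The part of sex in the falls of immediate-early genes was not tested. Fosb itself was at 3.37 and 2.2 CPM in the P1 WT libraries and at 141 and 108 CPM in the P6 cKO libraries. The sources used here do not state how long before lysis the cultures were handled.

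**Figure D4:**
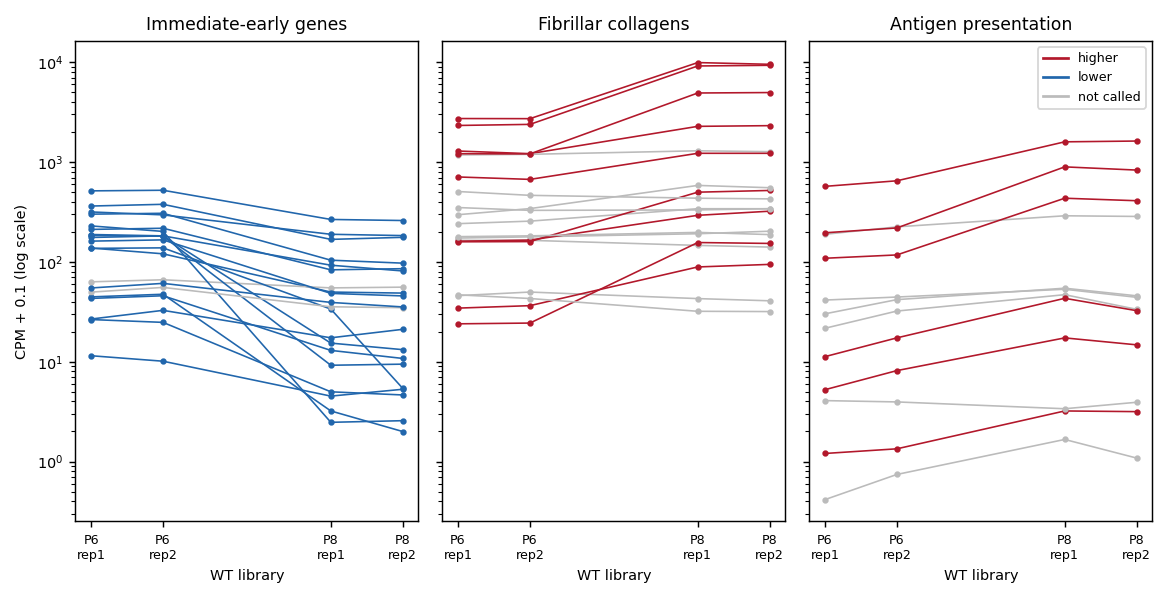
CPM plus 0.1 (log axis) of each member of 3 gene lists in the 4 WT libraries, 1 line per gene, with red, blue and grey for genes called higher, lower and not called. Among immediate-early genes 18 of 20 lines fall, among fibrillar collagen genes 9 of 19 rise, and among antigen presentation genes 6 of 12 rise.

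The other large falls included genes at low level. Upk1b, a uroplakin, was at 2.26 and 2.48 CPM at P6 and had no count at P8, at least 104-fold lower. Prl2c2, a proliferin gene with close copies, fell from 6.99 and 6.04 CPM to 0.0336 and 0.0554 CPM (log2 fold change -7.11, SE 0.44, adjusted p = 1.96e-05); its copy Prl2c3 lost the call on leaving out any 1 library. Egr4, 7.34 and 7.04 CPM at P6 and 0.202 and 0.332 CPM at P8, and Dusp2, 4.04 and 3.74 CPM at P6 and 0.202 and 0.111 CPM at P8, are also induced by stimulation, and the call of Dusp2 was lost without either P8 library. Serpinb2, a plasminogen activator inhibitor, fell from 8.84 and 8.15 CPM to 0.437 and 0.263 CPM (log2 fold change -4.61, SE 0.29, adjusted p = 2.83e-06). Cd4, Kcnj12, Serpinb1c and Dhrs9 made up the rest of the 12.

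The largest losses in CPM were in genes of other kinds. Ctsb, a lysosomal protease, was at 5693 and 5847 CPM at P6 and 3756 and 3684 CPM at P8 (log2 fold change -0.63, SE 0.023, adjusted p = 1.07e-07). Gpnmb, a glycoprotein of phagocytic cells, fell from 1996 and 2030.3 CPM to 853 and 851 CPM (log2 fold change -1.24, SE 0.049, adjusted p = 1.49e-07). Stab1, a scavenger receptor of macrophages, fell from 1319 and 1231 CPM to 394 and 396 CPM (log2 fold change -1.69, SE 0.041, adjusted p = 1.29e-08). These 3 fell while the summed microglial and macrophage markers stayed between 4440 and 4795 CPM. Pea15a, a cytosolic phosphoprotein first found in astrocytes, was at 1881 and 2013 CPM at P6 and 768 and 671 CPM at P8 (log2 fold change -1.44, SE 0.058, adjusted p = 1.74e-07). Among the largest gains outside the matrix, Fth1, ferritin heavy chain, rose from 3832 and 4048 CPM to 6466 and 6463 CPM (log2 fold change 0.71, SE 0.039, adjusted p = 1.15e-06). Apoe, the lipid carrier secreted by astrocytes and microglia, rose from 1010.4 and 1082 CPM to 2392 and 4198 CPM (log2 fold change 1.66, SE 0.24, adjusted p = 6.17e-04), with P8 replicates that differed widely from each other.

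Genes of DNA replication and of mitosis were lower or not called, and none was higher. Of 28 replication genes 12 were lower, with a median log2 fold change of -0.53, and of 29 mitosis genes 8 were lower, with a median of -0.51. The falls were modest in size. Mcm6, a subunit of the replicative helicase, was at 109.7 and 112 CPM at P6 and 64.2 and 65.3 CPM at P8 (log2 fold change -0.77, SE 0.050, adjusted p = 3.57e-06). Mcm5, another subunit, was at 53 and 53.9 CPM at P6 and 29.3 and 30.3 CPM at P8 (log2 fold change -0.84, SE 0.098, adjusted p = 1.64e-04). Pcna, the sliding clamp, fell from 136 and 138 CPM to 84.5 and 80.3 CPM (log2 fold change -0.74, SE 0.063, adjusted p = 2.22e-05). Mki67, the proliferation antigen Ki-67, fell from 275 and 239.8 CPM to 155 and 162 CPM (log2 fold change -0.70, SE 0.072, adjusted p = 7.39e-05). Top2a, topoisomerase II alpha, was at 199 and 195 CPM at P6 and 151 and 151 CPM at P8, below the fold threshold. Ccnd1, cyclin D1, which drives entry into the cell cycle, fell further, from 1892 and 1888 CPM to 629 and 636 CPM (log2 fold change -1.58, SE 0.028, adjusted p = 4.05e-09). Cdkn1a, the p21 inhibitor, was at 630.0 and 665 CPM at P6 and 567 and 561 CPM at P8 and did not reach the fold threshold.

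Promoter sequences of RefSeq (build GRCm38.p6, 250 bases before to 50 bases after the start) were searched for 11 motifs in 17 pairs of motif and list, and the 3 shown were chosen after matches and values were seen. The others were CCAAT of NF-Y, the element TTTGAA of mitotic genes, the cyclic AMP element TGACGTCA with its core TGACGT, the stress element TGATGNAA, the antioxidant element TGACNNNGC, an interferon-type repeat of TTTC and the serum response element, and they are not described. The first shown is TTTCGCGC, the form of site known for E2F factors, which drive replication genes. It was present on either strand in 5 of the 22 replication genes that had a promoter in the table, against 0.374% of all gene symbols there. Lig1, Mcm5, Mcm6 and Mcm7 were lower and Rfc3 was not called. Stretches of 60 bases from the 2 helicase genes above show it in capitals, beginning 153 bases before the start in Mcm5 (chr8:75109330-75109389, plus strand) and 106 bases before it in Mcm6 (chr1:128359778-128359837, minus strand), where it reads on the opposite strand.
Mcm5: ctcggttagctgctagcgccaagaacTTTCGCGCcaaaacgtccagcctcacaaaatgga
Mcm6: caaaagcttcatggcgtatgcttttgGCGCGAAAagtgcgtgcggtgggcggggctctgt

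Of 16 FGF ligands, receptors and feedback genes, 9 were lower and none was higher, with a median log2 fold change of -1.02. Fgfr1, a receptor, was at 281 and 275 CPM at P6 and 164 and 171 CPM at P8 (log2 fold change -0.73, SE 0.046, adjusted p = 2.71e-06). Dusp6, a phosphatase induced by ERK signalling, fell from 217 and 213 CPM to 100.2 and 96.1 CPM (log2 fold change -1.13, SE 0.042, adjusted p = 1.07e-07). Etv5, a transcription factor induced by FGF, fell from 184 and 179 CPM to 75.6 and 78.3 CPM (log2 fold change -1.24, SE 0.046, adjusted p = 1.18e-07). The feedback inhibitor Spry4 fell from 33.2 and 33.8 CPM to 7.2 and 7.63 CPM (log2 fold change -2.17, SE 0.13, adjusted p = 1.94e-06). The members named here thus lay on the same side, while 7 of the 16 were not called and 2 had a log2 fold change above 0. Of 24 genes of BMP and TGF-beta signalling 10 were lower and 2 higher. Id1 and Id2, inhibitors of differentiation induced by BMP, were both lower, at 165 and 168 CPM at P6 and 82 and 82.4 CPM at P8 for Id2 (log2 fold change -1.02, SE 0.29, adjusted p = 0.0244), whereas Id3 was at 151 and 162 CPM at P6 and 168 and 152 CPM at P8 and was not called (log2 fold change 0.028, SE 0.060, adjusted p = 0.766). The call of Id2 was lost on leaving out any 1 library. The higher members were 2 ligands, Bmp4, at 38.9 and 41.4 CPM at P6 and 74.1 and 70.2 CPM at P8 (log2 fold change 0.85, SE 0.088, adjusted p = 8.18e-05), and Gdf10, which rose from 9.48 and 10.7 CPM to 65.7 and 71.6 CPM (log2 fold change 2.77, SE 0.11, adjusted p = 1.41e-07). Grem1, a BMP antagonist, fell from 8.22 and 6.85 CPM to 0.673 and 0.429 CPM (log2 fold change -3.78, SE 0.20, adjusted p = 9.31e-07).

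Of 14 Wnt ligand genes 7 were lower and 1 was higher. Wnt2 was at 16.3 and 15 CPM at P6 and 5.52 and 7.49 CPM at P8 (log2 fold change -1.26, SE 0.30, adjusted p = 0.00961), and its call was lost without P8 replicate 1. Wnt7a, a ligand of neural progenitors, was at 4.43 and 4.12 CPM at P6 and 1.46 and 1.84 CPM at P8 (log2 fold change -1.37, SE 0.22, adjusted p = 0.00103). Wnt5a was at 60.7 and 73 CPM at P6 and 68.8 and 70.7 CPM at P8 and did not pass. Wnt16, the ligand called higher, was at 0.300 and 0.365 CPM at P6 and 3.58 and 3.95 CPM at P8, and that call was lost on leaving out any 1 library. Axin2, a feedback target of the pathway, fell from 35.4 and 30.9 CPM to 17.1 and 16.5 CPM (log2 fold change -0.98, SE 0.12, adjusted p = 1.82e-04), and the T cell factor Tcf7 fell from 17.7 and 17.5 CPM to 5.72 and 5.5 CPM (log2 fold change -1.65, SE 0.11, adjusted p = 4.14e-06). Rspo3, a secreted enhancer of Wnt signalling, rose from 7.86 and 9.24 CPM to 81.4 and 81.7 CPM (log2 fold change 3.25, SE 0.13, adjusted p = 1.49e-07). Sfrp4, a secreted Wnt antagonist, rose from 6.5 and 5.55 CPM to 56.3 and 59.1 CPM (log2 fold change 3.26, SE 0.13, adjusted p = 1.82e-07).

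In the insulin-like growth factor axis 5 of 10 genes were lower and none was higher. Igfbp2, a binding protein of glial cultures, fell from 2242 and 3202 CPM to 713 and 669.9 CPM (log2 fold change -1.98, SE 0.22, adjusted p = 1.33e-04). Igfbp5 fell from 3023 and 3043 CPM to 1329 and 1434 CPM (log2 fold change -1.13, SE 0.043, adjusted p = 1.17e-07), and Igfbp3 from 378 and 395 CPM to 86.3 and 84.2 CPM (log2 fold change -2.18, SE 0.049, adjusted p = 9.76e-09). The ligand Igf2 was at 1038 and 1062 CPM at P6 and 5075 and 3058 CPM at P8, with both P8 libraries above P6 and a wide gap between them, and it did not pass (log2 fold change 1.95, SE 0.68, adjusted p = 0.0511). In the Notch pathway the ligand Jag1 was higher, at 117 and 114 CPM at P6 and 208 and 198 CPM at P8, and the modifier Lfng lower, at 47 and 46.5 CPM at P6 and 22.8 and 21.2 CPM at P8, while Notch2 did not reach the fold threshold.

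Genes of antigen presentation rose or were not called. Of 12 tested, 6 were higher and none was lower, with a median log2 fold change of 1.33. H2-D1, a class I heavy chain, was at 195 and 219 CPM at P6 and 894 and 831 CPM at P8 (log2 fold change 2.06, SE 0.064, adjusted p = 3.86e-08). H2-K1, another classical class I heavy chain, rose from 109 and 117 CPM to 434 and 409.5 CPM (log2 fold change 1.90, SE 0.049, adjusted p = 1.44e-08). B2m, the light chain of both, rose from 571 and 649 CPM to 1594 and 1623 CPM (log2 fold change 1.40, SE 0.068, adjusted p = 5.18e-07). Tapbp, the peptide-loading factor tapasin, was at 189 and 224 CPM at P6 and 289 and 285 CPM at P8 and missed the fold threshold. Class I heavy chains are near-identical in sequence, so reads may be shared between them. Both heavy chain genes carry GGGGA, then any base, then TCCC, the form of site known for NF-kappaB, in their promoters. They are 2 of the 9 list members with a promoter in the table, against 0.381% of all symbols. Their stretches printed below are nearly identical, so the 2 genes do not count as separate cases and nothing is read from the share. The matches on the 2 strands overlap, so 11 letters are capitals in the stretches below, beginning 111 bases before the start of H2-K1 (chr17:34000424-34000483, minus strand) and 171 bases before that of H2-D1 (chr17:35262898-35262957, plus strand). None of the 9 complement genes and none of the 18 chemokine and cytokine genes with a promoter there held it.
H2-K1: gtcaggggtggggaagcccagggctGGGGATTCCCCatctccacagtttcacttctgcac
H2-D1: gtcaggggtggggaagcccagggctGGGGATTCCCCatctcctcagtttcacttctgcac

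Complement genes were higher in 9 of 16 cases. C3, the central component, rose from 109 and 119 CPM to 375 and 375 CPM (log2 fold change 1.72, SE 0.11, adjusted p = 3.73e-06). C4b rose from 47.5 and 50.3 CPM to 169 and 158 CPM (log2 fold change 1.74, SE 0.056, adjusted p = 4.75e-08). C1qa and C1qc, made by microglia, were at 569.8 and 617 CPM at P6 and 609 and 571 CPM at P8 for C1qa and 598 and 634 CPM at P6 and 544 and 507 CPM at P8 for C1qc, and neither was called. The only lower member, the membrane inhibitor Cd59a, lost its call on leaving out any 1 library. Several of these genes are also strong in liver, fibroblasts and macrophages, and the part of those cells was not tested.

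Of 24 chemokine and cytokine genes 11 were higher and 9 were lower. Cxcl12, a chemokine of stromal and meningeal cells, rose from 39 and 33.9 CPM to 428 and 443 CPM (log2 fold change 3.58, SE 0.37, adjusted p = 7.81e-05). Il33, an alarmin of glia and stroma, rose from 70 and 63.3 CPM to 180.1 and 175 CPM (log2 fold change 1.42, SE 0.12, adjusted p = 1.94e-05). Cxcl5, which attracts neutrophils, rose from 1.21 and 0.511 CPM to 60.4 and 53.9 CPM (log2 fold change 6.06, SE 0.31, adjusted p = 7.81e-07). On the lower side, Ccl2, which attracts monocytes, fell from 54.2 and 70.1 CPM to 17.2 and 15.2 CPM (log2 fold change -1.94, SE 0.12, adjusted p = 2.37e-06). Lif, a cytokine of the interleukin-6 family, fell from 64.7 and 61.9 CPM to 10.6 and 9.32 CPM (log2 fold change -2.67, SE 0.15, adjusted p = 1.52e-06), and Csf1, the growth factor of macrophages, was at 421 and 434 CPM at P6 and 274 and 273 CPM at P8 (log2 fold change -0.65, SE 0.040, adjusted p = 2.54e-06). The count for interferon-stimulated genes depended on 1 library. Their sum was 804 and 1750 CPM in the P6 libraries and 1954 and 1536 CPM in the P8 libraries, so P6 replicate 2 stood among the P8 libraries. Of 27 tested, 4 were called higher, against 21 without P6 replicate 2 and 1 without P6 replicate 1.

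Peptide and lipid mediators held some of the widest changes. Penk (ENSMUSG00000045573, chromosome 4, 4133531 to 4138819), which encodes the enkephalin precursor, was at 2.34 and 2.72 CPM at P6 and 289 and 318 CPM at P8 (log2 fold change 6.91, SE 0.21, adjusted p = 3.24e-08), the largest positive log2 fold change among the called members of the 35 lists. In the P6 and P8 libraries labelled cKO it was below 1 CPM, at 0.487 and 0.280 CPM at P6 and 0.396 and 0.487 CPM at P8. Edn1, endothelin-1, fell from 3.61 and 5.52 CPM to 0.706 and 0.706 CPM (log2 fold change -2.69, SE 0.22, adjusted p = 1.61e-05). Of 14 prostaglandin genes 6 were higher and 1 was lower. Ptgs2, the inducible cyclooxygenase, was the lower one, from 387 and 358 CPM to 63.4 and 57.7 CPM (log2 fold change -2.62, SE 0.096, adjusted p = 1.02e-07), and Ptgs1, the constitutive enzyme, was higher, at 8.65 and 8.64 CPM at P6 and 22.6 and 22.8 CPM at P8 (log2 fold change 1.39, SE 0.076, adjusted p = 1.15e-06). Ptgdr, a prostaglandin D2 receptor, rose from 3.76 and 3.96 CPM to 48.6 and 52.8 CPM (log2 fold change 3.72, SE 0.50, adjusted p = 0.00115). Aldh1a1, a retinaldehyde dehydrogenase, fell from 213 and 211 CPM to 48.6 and 43.8 CPM (log2 fold change -2.20, SE 0.066, adjusted p = 3.26e-08), while Aldh1a2, the form found in meninges, rose from 4.62 and 5.14 CPM to 15.6 and 15.5 CPM (log2 fold change 1.67, SE 0.15, adjusted p = 2.47e-05). Lpl, lipoprotein lipase, fell from 442 and 446 CPM to 99.1 and 108 CPM (log2 fold change -2.10, SE 0.059, adjusted p = 2.43e-08). Cholesterol synthesis genes were lower in 5 of 21 cases and higher in none, and the count of lower genes was 3 without P8 replicate 2.

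The stress programmes examined went in different directions. Of 12 metallothioneins and NRF2 targets 8 were lower and 1 was higher. Hmox1, heme oxygenase 1, fell from 559 and 554 CPM to 327 and 312 CPM (log2 fold change -0.80, SE 0.060, adjusted p = 8.83e-06), and Nqo1, a quinone reductase, from 59 and 50.8 CPM to 13.5 and 15 CPM (log2 fold change -1.94, SE 0.14, adjusted p = 7.00e-06). Slc7a11, the cystine carrier, which is also induced by amino acid stress, rose from 278 and 251 CPM to 495 and 498 CPM (log2 fold change 0.91, SE 0.080, adjusted p = 2.57e-05). Of 19 genes of the unfolded protein and integrated stress responses 6 were higher and 1 was lower. Asns, asparagine synthetase, rose from 29 and 28 CPM to 81.7 and 85.1 CPM (log2 fold change 1.55, SE 0.074, adjusted p = 5.02e-07). Atf5 rose from 73.7 and 77.5 CPM to 188 and 190.4 CPM (log2 fold change 1.32, SE 0.055, adjusted p = 2.19e-07), and Trib3, a pseudokinase, from 1.36 and 1.61 CPM to 13.8 and 11.3 CPM (log2 fold change 3.08, SE 0.16, adjusted p = 8.40e-07). Chac1, a glutathione-degrading enzyme, was at 2.21 and 2.7 CPM at P6 and 8.46 and 8.37 CPM at P8 (log2 fold change 1.78, SE 0.14, adjusted p = 1.13e-05), and Vldlr, a lipoprotein receptor, at 22.5 and 19.1 CPM at P6 and 43.7 and 44.6 CPM at P8 (log2 fold change 1.09, SE 0.081, adjusted p = 8.46e-06). The chaperone genes Hspa5 and Hsp90b1 did not pass, with Hspa5 at 762 and 779 CPM at P6 and 833 and 601 CPM at P8. Atf3, a stress factor that is also an immediate response gene, fell from 82.1 and 100.1 CPM to 14.6 and 16 CPM (log2 fold change -2.57, SE 0.10, adjusted p = 1.73e-07). The site TTGCATCA, a form known for ATF4 and C/EBP factors, was present in the promoters of 4 of these 19 genes, against 1.03% of all symbols (each match is also a match of TGATGNAA on the other strand): Chac1 and Vldlr, which were higher, Atf3, which was lower, and Herpud1, which was not called. It begins 193 bases before the start of Chac1 (chr2:119351023-119351082, plus strand) and 200 bases before that of Vldlr (chr19:27216794-27216853, plus strand), in capitals.
Chac1: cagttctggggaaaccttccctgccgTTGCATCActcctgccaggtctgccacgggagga
Vldlr: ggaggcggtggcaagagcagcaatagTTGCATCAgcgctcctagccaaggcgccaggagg

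Transcription factors that mark brain regions were lower in 11 of 24 cases and higher in 2. Lhx2, a factor of the cortex, fell from 24.1 and 24.8 CPM to 4.05 and 3.98 CPM (log2 fold change -2.60, SE 0.13, adjusted p = 5.53e-07). Zic1, a factor of the dorsal midline and the meninges, rose from 101 and 79.6 CPM to 256 and 265 CPM (log2 fold change 1.53, SE 0.11, adjusted p = 5.30e-06), and its neighbour Zic4 was at 18.9 and 21.9 CPM at P6 and 52 and 61.7 CPM at P8, a call lost without either P6 library or without P8 replicate 2. Axon guidance genes split evenly, with 7 of 22 higher and 7 lower. Slit3, a repellent ligand, rose from 153 and 135 CPM to 423 and 421 CPM (log2 fold change 1.55, SE 0.067, adjusted p = 2.58e-07), and Ntn1, netrin-1, fell from 180.1 and 173 CPM to 40 and 36.6 CPM (log2 fold change -2.21, SE 0.056, adjusted p = 1.35e-08). Of 12 smooth muscle contractile genes 6 were lower, among them Tagln, at 1154 and 1198 CPM at P6 and 694 and 676 CPM at P8 (log2 fold change -0.78, SE 0.051, adjusted p = 3.73e-06), and Mylk was higher, at 16 and 14.7 CPM at P6 and 58.6 and 59.7 CPM at P8 (log2 fold change 1.95, SE 0.13, adjusted p = 4.12e-06). Glycolysis, lactate and glycogen genes were mostly not called, with 2 of 22 identifiers higher and 3 lower, Aldoa being carried by 2 identifiers. The same is true of autosomal genes at large, of which 8.62% were higher and 10.3% lower. Hk2, a hexokinase, was at 99.8 and 102 CPM at P6 and 56.1 and 54.7 CPM at P8 (log2 fold change -0.87, SE 0.044, adjusted p = 7.09e-07).

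The step from P6 to P8 in WT was set beside the same step in the libraries labelled cKO, by a test of the difference between the steps. It passed an adjusted p of 0.05 for 3698 of 17223 autosomal genes (21.5%), more positive in the cKO libraries for 2186 and more negative for 1512. Among the 1484 genes higher at P8 in WT the steps differed for 630, more negative in the cKO libraries for 401 and more positive for 229. Among the 1771 lower genes they differed for 715, more positive in the cKO libraries for 557 and more negative for 158. The WT step is part of both the call and the difference, so nothing is read from these directions. The same limit holds for the directions given for lists below. The steps of immediate-early genes differed for 12 of 20 and were more positive in the cKO libraries in each of these. The difference for Fosb did not pass (difference 0.48 on the log2 scale, SE 0.33, adjusted p = 0.357), and it was at 141 and 108 CPM at P6 and 1.91 and 1.99 CPM at P8 in the cKO libraries. Astrocyte markers differed for 9 of 16, always more negative in the cKO libraries. Gfap was at 426 and 464 CPM at P6 and 184 and 176 CPM at P8 in the cKO libraries (difference -1.17 on the log2 scale, SE 0.081, adjusted p = 1.22e-05). Microglial and macrophage markers differed for 14 of 16, 13 of them more positive in the cKO libraries.

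Type I and type III collagen genes and decorin stood below WT at both ages in the libraries labelled cKO, and their steps differed. Col1a1 was at 1609 and 1479 CPM at P6 and 3929 and 3990.5 CPM at P8 in the cKO libraries, below WT at both ages (difference -0.48 on the log2 scale, SE 0.062, adjusted p = 5.83e-04). Col3a1 was at 22.8 and 25.9 CPM at P6 and 1118 and 1170.0 CPM at P8 there, a larger rise than in WT (difference 3.52 on the log2 scale, SE 0.085, adjusted p = 3.88e-08). Dcn was at 1.93 and 3.28 and 45.7 and 44.7 CPM in the cKO libraries of P6 and P8 (difference 1.09 on the log2 scale, SE 0.22, adjusted p = 0.00705). Fibroblast markers differed in step for 6 of 10, 4 of them more positive in the cKO libraries. DNA replication genes differed for 15 of 28 and mitosis genes for 12 of 29, always more positive in the cKO libraries. Both lists had a negative median in WT, and the WT step is part of the difference, so nothing is read from this direction. Stab1 fell in WT and was at 1144 and 1188 CPM at P6 and 1795 and 1766 CPM at P8 in the cKO libraries (difference 2.30 on the log2 scale, SE 0.057, adjusted p = 4.21e-08).

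**Figure D5:**
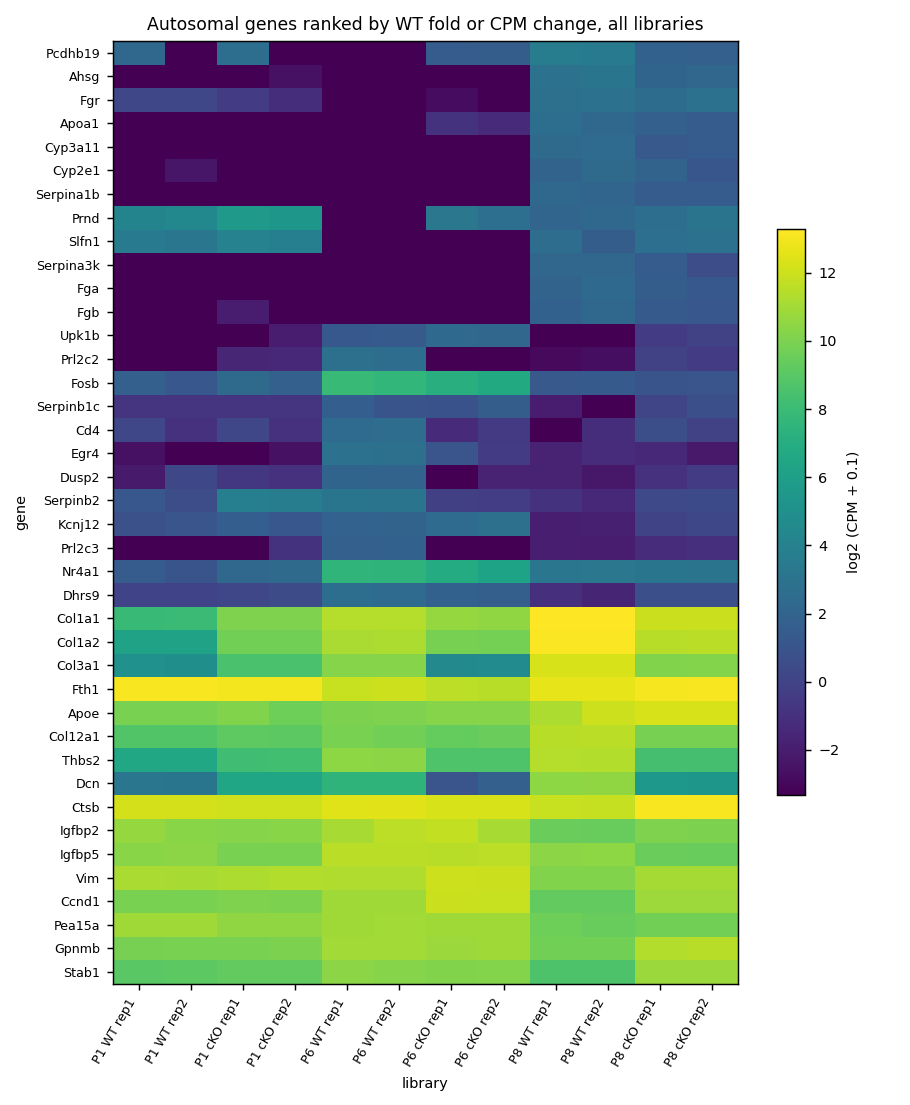
Heat map of log2 (CPM plus 0.1) for 40 autosomal genes (rows), the 12 largest rises and falls in WT by fold and the 8 largest each way by CPM, in the 12 libraries (columns); brighter cells are higher. Liver genes such as Ahsg are present in the P8 libraries of both labels, Fosb and Nr4a1 are brightest in the P6 libraries of both labels, and collagen genes are brightest in P8 WT.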

How the data were processed

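The series holds 12 RNA-seq libraries of cultured primary astrocytes, 2 for each age and genotype label, in 6 groups. The authors mapped the reads with HISAT2 to the mouse genome mm10 and deposited raw counts for 18903 genes; no source used here names the counting program, annotation or strand setting, and reads of overlapping or antisense genes may not be separated. The members and gene lists were chosen with earlier results of these data known.

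Counts were tested in edgeR 4.0.16 (R 4.3.3) with TMM normalization, filterByExpr by group and the quasi-likelihood test on all 12 libraries, for P8 WT minus P6 WT and for the difference between the cKO and WT steps. Genes were placed by GENCODE vM21 (GRCm38), and 42 identifiers had no position there. The named genes were the 12 largest rises and falls by fold and the 8 largest by CPM difference (called, autosomal, mean of at least 1 CPM), and in each list the 3 members of highest CPM called in each direction and the 2 not called; defining markers could be named at any value. Some genes that this rule names are not reported here. Genes at 0 in a group were set against a floor of 3 counts over that group, which covers counting error only. Lists are described by counts and medians, with no set test. The script was tested on simulated data. Chi-square statistics between the replicates of a group were 30.5 to 47.1 times their degrees of freedom, above sampling noise, so none was treated as a duplicate. An exact permutation test of 2 libraries against 2 cannot go below p = 0.333.

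Alternatives were size factors and tests of DESeq2 1.42.0, no low-count filter, a replicate block, fits of the 4 libraries alone, other thresholds and leaving out each library.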

Additional observations from a re-analysis of the deposited data

Results flagged for a closer look

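Of 40 autosomal genes, the 12 with the largest rises and falls in WT by fold and the 8 each way by CPM, 25 had counts in all 4 of the P6 and P8 groups, and for 20 of them the step from P6 to P8 differed between WT and the libraries labelled cKO by the test of the difference of steps (edgeR, adjusted p below 0.05). These genes were chosen for their WT step, which is also part of the difference tested, so the count and the values are a description and support nothing. The 15 genes with a group at 0 were left out, and list members are given as counts in the comparison above. Values are the cKO step minus the WT step on the log2 scale, so a positive value means a more positive step in the cKO libraries.

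Among the matrix genes that rose in WT, the difference was -0.48 for Col1a1, -0.25 for Col1a2, 3.52 for Col3a1, -1.23 for Col12a1, -1.33 for Thbs2 and 1.09 for Dcn. Ferritin heavy chain Fth1 differed by 0.81. Among genes expressed by phagocytes that fell in WT, it was 1.51 for Ctsb, 1.80 for Gpnmb and 2.30 for Stab1, and the summed microglial and macrophage markers also stood higher in the P8 cKO libraries than in the other P6 and P8 libraries. For the remaining losses it was -0.98 for Igfbp5, 0.29 for Vim, 0.48 for Ccnd1 and 0.28 for Pea15a. Among genes at low level that fell in WT, it was 4.25 for Serpinb1c, 6.23 for Cd4, 6.88 for Dusp2, 5.28 for Serpinb2, 1.86 for Kcnj12 and 3.16 for Dhrs9. The P6 cKO libraries held few counts of some of these, with Dusp2 at 0 and 0.218 CPM and Cd4 at 0.320 and 0.607 CPM. The part of the microglial and fibroblast levels in these differences was not tested.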

How the results depend on the processing

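With 2 libraries per group, the spread was taken from all 12, and a lone library left in a group was assumed to vary like the others. The count of genes higher at P8 (1484) was 1545 with DESeq2's size factors, 1658 with DESeq2 on 12 libraries and 1228 to 1325 on leaving out each library; the count lower (1771) was 1713, 1801 and 1579 to 1650. A fold threshold of 2 gave 884 higher and 1072 lower. The difference between steps (3698) was 4292 with DESeq2 and 2876 to 3264 on leaving out a WT library. With the replicate block, the counts were 1439, 1735 and 3496; the numbers do not pair the libraries, since same-numbered libraries correlated in their deviations by -0.0436 to 0.0913. Of 2020 values of the 202 called named genes under 10 alternatives, 1945 kept their call, 75 lost it, in 27 genes, and 0 reversed. The calls of Prl2c3, Ntsr2, Pcdhb19, Wnt16, Id2 and Cd59a were lost on leaving out any 1 of the 4 libraries, that of Gja1 also in both fits of the 4 libraries alone, and that of Cd4 with DESeq2 on those 4. List counts that moved by more than 1.5 times on leaving out a library were, among others, interferon-stimulated genes higher (4, from 1 to 21) astrocyte markers higher (2, from 0 to 1), cholesterol genes lower (5, from 3 to 5), and potassium, water and gap junction genes, glycolysis genes and regional factors higher (2 each, from 1 to 2). Sex of the tissue, age and culture cannot be told apart, and no second batch of cultures was analysed.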

Other observations

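Imprinted genes, which are expressed from 1 parental allele, were listed after their values were seen. Of 30 tested, 8 were higher at P8, 5 were lower and 17 were not called. H19, a noncoding RNA, was at 186 and 189 CPM at P6 and 826 and 883 CPM at P8 (log2 fold change 2.19, SE 0.15, adjusted p = 5.27e-06). Plagl1, a zinc finger factor, rose from 122 and 113 CPM to 611 and 633 CPM (log2 fold change 2.40, SE 0.069, adjusted p = 2.65e-08), Peg3 from 114 and 97.3 CPM to 494 and 520.2 CPM (log2 fold change 2.26, SE 0.087, adjusted p = 1.30e-07), and Grb10, an adaptor that restrains insulin signalling, from 574 and 536 CPM to 1391 and 1388 CPM (log2 fold change 1.32, SE 0.053, adjusted p = 1.66e-07). Mest fell from 89.6 and 93.2 CPM to 11 and 12.2 CPM (log2 fold change -2.97, SE 0.062, adjusted p = 8.32e-09), and Peg10 from 88.6 and 84.6 CPM to 21.5 and 20.8 CPM (log2 fold change -2.03, SE 0.072, adjusted p = 9.00e-08), so maternally silenced genes lay on both sides. In the libraries labelled cKO, H19 was at 1.43 and 0.856 CPM at P6 and 48.1 and 45.8 CPM at P8 (difference 3.16 on the log2 scale, SE 0.24, adjusted p = 1.83e-05).

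Some inflammatory transcripts outside the lists were also chosen after their values were seen. Saa3, an acute-phase serum amyloid, was at 0.663 and 1.68 CPM at P6 and 104 and 96.7 CPM at P8 (edgeR log2 fold change 6.40, SE 0.28, adjusted p = 2.51e-07). Fpr1, a formyl peptide receptor of neutrophils and macrophages, was at 1.26 and 0.759 CPM at P6 and 55.0 and 55.2 CPM at P8 (log2 fold change 5.77, SE 0.31, adjusted p = 1.10e-06). In both the replicates of each age were close.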
